A study of Mus musculus with 12 samples.

Results

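The genes described here encode extracellular matrix proteins, their cell surface receptors and the proteases that cut them. They were taken as the probe sets with 1 platform gene symbol that began with the stem for a collagen, laminin, ADAM, ADAMTS, TIMP, MMP, integrin, syndecan, glypican or serpin. A value over 4 on the log2 scale was required on at least 3 of the 12 arrays, and of several such probe sets of a gene the one with the highest mean was used. This left 15 genes of 58 with such a symbol, out of 4617 genes measured at that level. They were the syndecans Sdc3 and Sdc4, the glypicans Gpc4 and Gpc6, the integrin subunits Itga4 and Itgb8, the laminin chain Lamb2, the collagens Col16a1 and Col8a2, the ADAM family genes Adam11, Adam15, Adam22 and Adam23, and the ADAMTS family genes Adamts4 and Adamtsl4.

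Total RNA of mouse hippocampus, taken 1 h after mice received intraperitoneal kainate, which activates a class of glutamate receptors and causes seizures, or saline, was hybridised to Affymetrix MG-U74B arrays. The groups were labelled mutant animals given kainate at 20 mg/kg, labelled mutant animals given saline, control animals given kainate at the same dose and control animals given saline, with 3 arrays in each. The title of the series gives the loss of CREB and CREM, transcription factors that respond to cAMP, as the mutation. The sources used here do not give the alleles, the strain or any driver of a deletion. All mice were male and female littermates of 5 to 6 weeks, and each array carried RNA pooled from 3 animals. Values are log2 levels per probe set from GCRMA, so a difference of 1 is a doubling. They are not comparable between probe sets, and each gene is therefore compared with itself across groups.

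Brain matrix differs from that of connective tissue. Laminins and network collagens are held in the basement membrane around vessels, while the space between neurons is filled mainly by hyaluronan and chondroitin sulfate proteoglycans. Syndecans and glypicans carry heparan sulfate chains at the cell surface and present growth factors, integrins bind matrix proteins and couple them to the cytoskeleton, and ADAM and ADAMTS proteins shed membrane proteins or cut proteoglycans. Several neuronal ADAM proteins lack an active protease site and serve as receptors for the secreted LGI proteins, which are known for their part in epilepsy.

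The arrays that the labels number 1 stood apart from those numbered 2 and 3 in all 4 groups. Across all 6334 tested probe sets, 19.4% had values on the 4 arrays numbered 1 that did not overlap those on the other 8, and 2 of the 15 genes, Sdc4 and Sdc3, were among them (13.3%). The difference between the 3′ and 5′ Gapdh control probe sets lay between -0.42 and -0.36 on arrays numbered 1 and between -0.33 and -0.03 on the others, while that of the beta-actin control probe sets overlapped, at 1.44 to 1.74 on arrays numbered 1 and 1.51 to 1.82 on the others. Results are therefore also given for a fit that blocks on the replicate number and for numbers 2 and 3 alone. Values over 4 were found for 5741 to 6378 of the 12411 probe sets, and array medians lay between 3.77 and 4.07. Creb1 averaged 7.97 and 8.23 in labelled mutant arrays with kainate and saline, against 6.98 and 7.35 in control arrays with kainate and saline, and Crem was below the level for testing. Its level thus went against a loss of the targeted gene, although the sources used here do not place its probes relative to a deletion, and the arrays are called labelled mutant for this reason. Of the 6 neuron marker genes that had a probe set, 5 were measured (Syt1, Rbfox3, Neurod2, Slc17a7 and Nefl). The other, Snap25, was below the level for testing. Averaged over genotypes, the kainate differences of the 5 ran from -0.18 (Nefl) to 0.26 (Neurod2). Averaged over treatments, their labelled mutant minus control differences ran from -0.40 (Neurod2) to 0.06 (Syt1). None had an adjusted p under 0.05 in either comparison, with or without the block. In bulk RNA, fewer cells of a type and less RNA per cell cannot be told apart.

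**Figure D1:**
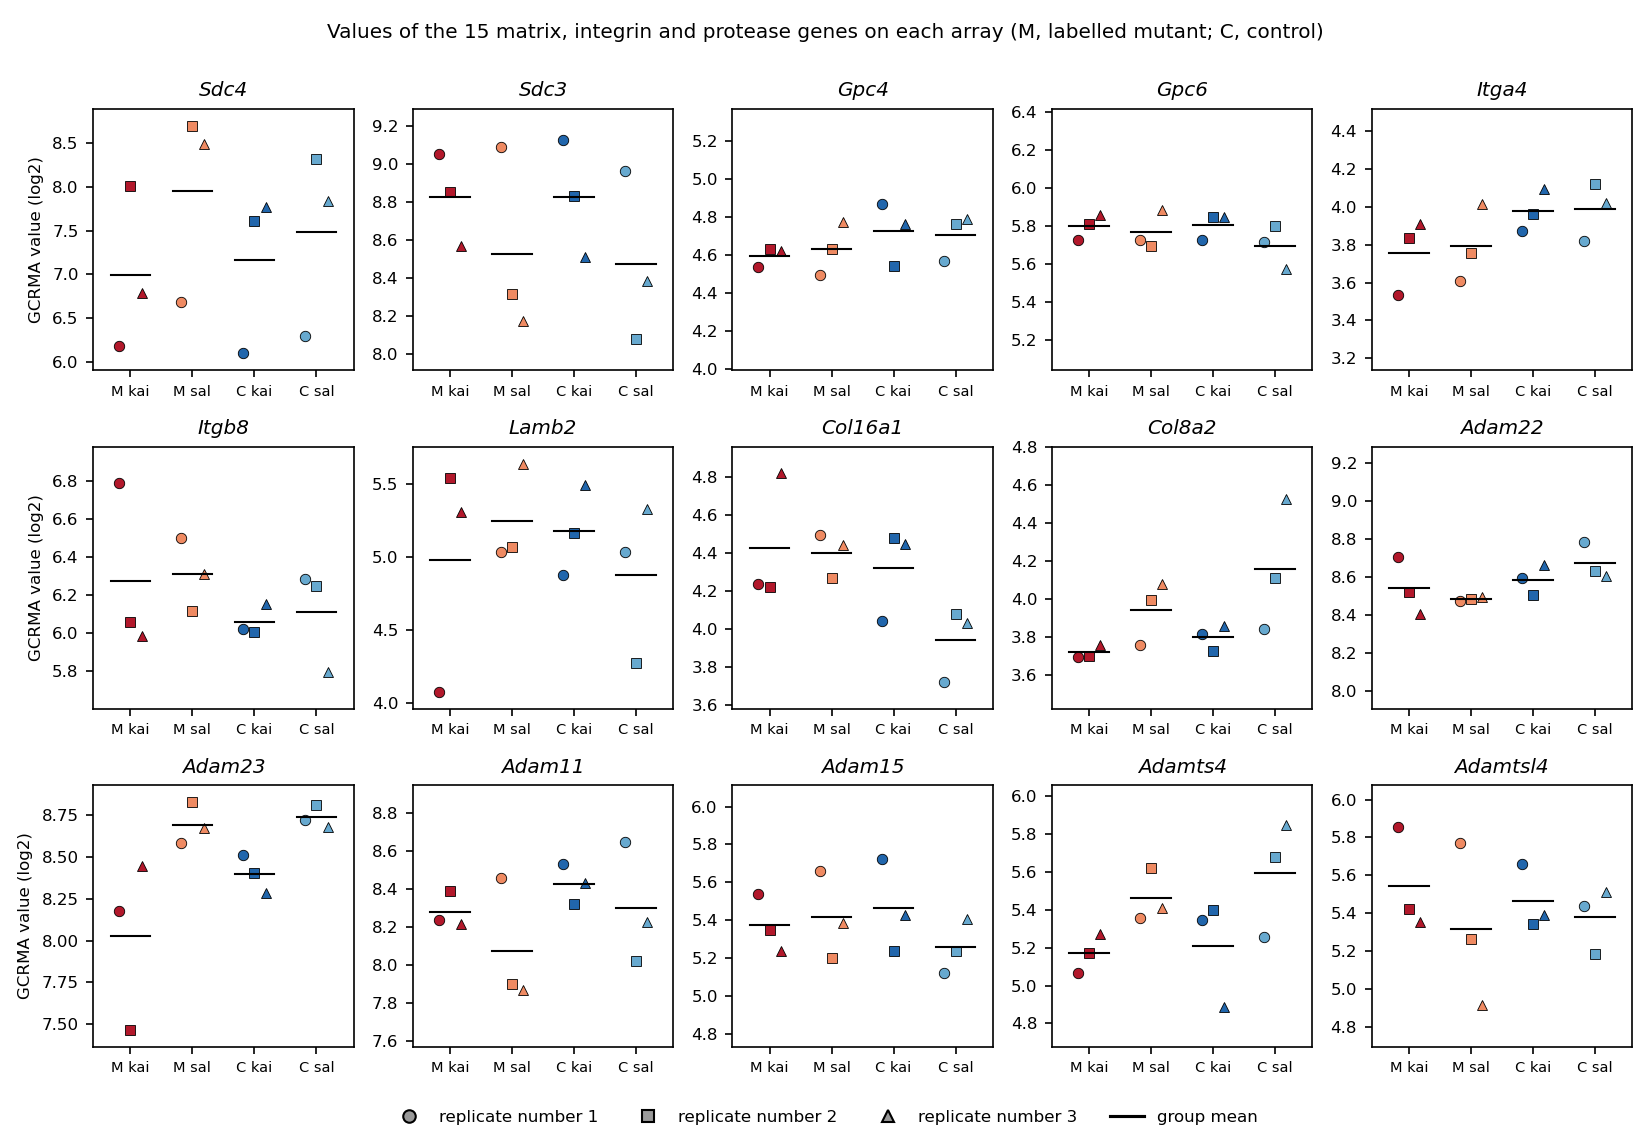
GCRMA values (log2, vertical axis) of the 15 genes on each of the 12 arrays, by group, with a symbol for each replicate number and a line at the group mean. Sdc4 has its 4 lowest values on the arrays numbered 1 and Sdc3 its 4 highest, and the Adam23 values of kainate arrays lie below those of saline arrays in each genotype.

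The first question was what kainate did to these genes within 1 h. None of the 15 passed in labelled mutant arrays, in control arrays or averaged over both (limma with Benjamini-Hochberg adjustment at 0.05 over 6334 probe sets), where 0.174%, 0.158% and 0.41% of all probe sets passed. Col8a2 reached the level of 4 through 3 saline arrays alone, so that the level favoured a lower value with kainate, and it is left out where 14 genes are counted. At an unadjusted p under 0.05, 2 of the 14 other genes were lower with kainate averaged over genotypes (Adam23 and Adamts4) and none was higher, where 14.7% of all probe sets reached this level in either direction and 8.07% as lower. Within genotypes 1 of 14 was lower in labelled mutant arrays (Adam23) and none in control arrays, where 3.06% and 5.43% of all probe sets were. Averaged differences of the 15 genes ran from -0.64 for Sdc4 to 0.33 for Sdc3. Their median was -0.01, against 0.01 for all tested probe sets, and 7 of the 14 lay below 0 where 48.3% of all probe sets did. Itga4 is 1 of these 7. Its 3 saline arrays over 4 met the level without its 1 kainate array, so that the level favoured this direction for it too.

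With the replicate number as a block, 1 of the 14 genes passed in the averaged comparison, Sdc4, which fell, where 7.63% of all probe sets passed and 5.42% as lower. Within labelled mutant and within control arrays none of the 15 passed with the block, where 0.363% and 0.584% of all probe sets did. In arrays numbered 2 and 3 alone, 5 of the 14 passed for kainate averaged over genotypes, while 22.3% of all probe sets passed. In these 8 arrays Sdc4, Adam23 and Adamts4 fell, where 13.5% of all probe sets passed as lower, and Sdc3 and Adam11 rose, where 8.76% passed as higher. No test of the difference between these shares was made. Within a genotype, none of the 15 passed in labelled mutant or control arrays numbered 2 and 3 alone, where 9.41% and 10.1% of all probe sets passed.

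**Figure D2:**
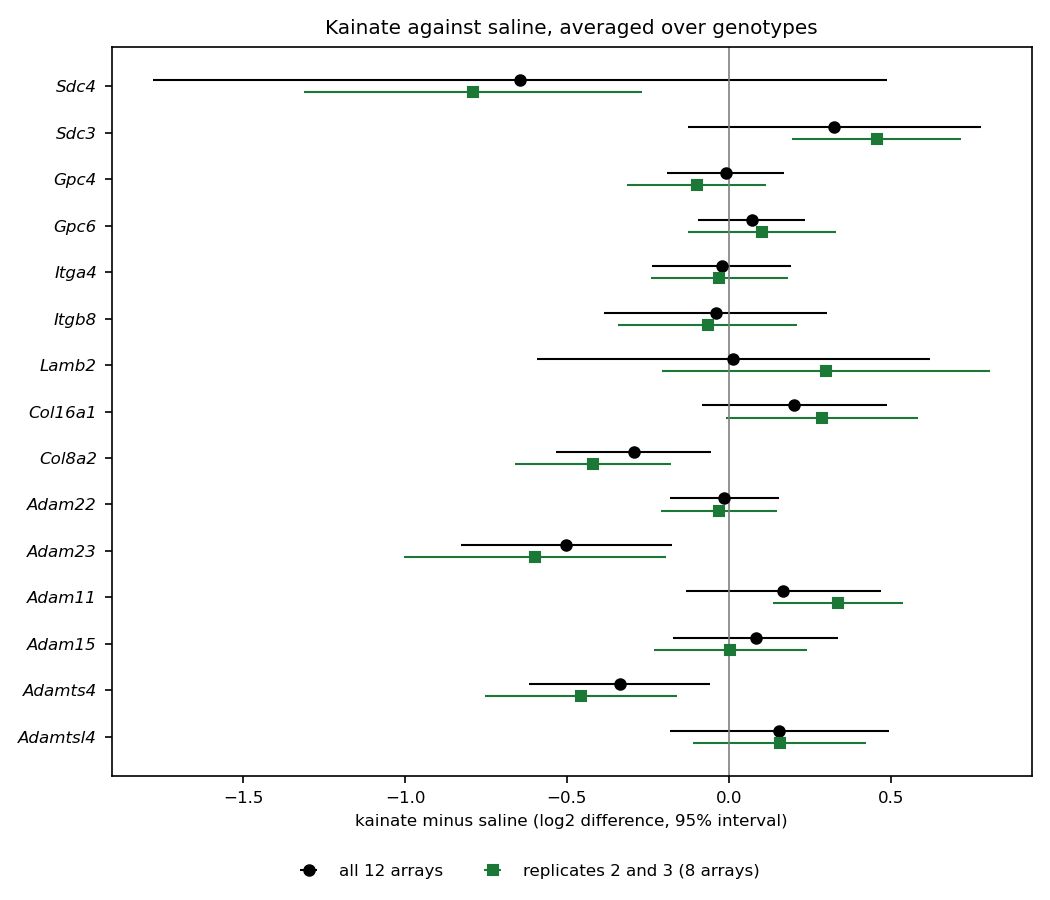
Log2 difference of kainate minus saline arrays, averaged over genotypes, for the 15 genes with its 95% interval from limma, in all 12 arrays (black circles) and in arrays numbered 2 and 3 alone (green squares). For Sdc4 the interval runs from -1.78 to 0.49 in all arrays and from -1.31 to -0.27 in the 8 arrays.

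Sdc4 encodes syndecan-4, a heparan sulfate proteoglycan of the cell surface that acts with integrins at focal adhesions. On the arrays numbered 1, 2 and 3 its log2 values were 6.19, 8.01 and 6.79 in labelled mutant kainate arrays, against 6.69, 8.70 and 8.48 in labelled mutant saline arrays. In control animals they were 6.10, 7.61 and 7.77 with kainate, against 6.30, 8.32 and 7.83 with saline. The groups overlapped widely, and every array numbered 1 was low. Arrays numbered 1 averaged 6.32 and the others 7.94, and this gap of -1.62 was larger in size than that of 98.5% of tested probe sets.

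Within each replicate number the kainate array of Sdc4 was lower than its saline array in 6 of 6 pairs. The averaged difference was -0.64 (1.56-fold lower with kainate), with an SE of 0.512 and a limma adjusted p of 0.599 over all arrays. With the block the SE was 0.162 and the adjusted p 0.0424. When 1 array at a time was left out of the blocked fit, the call was kept 3 times and lost 9 times. Of all probe sets, 9.65% to 17% passed in the fits that kept it and 0.853% to 9.5% in those that lost it. With all arrays 7.63% passed. In arrays numbered 2 and 3 alone the difference was -0.79 (limma adjusted p = 0.0378). The largest pair difference, -1.70 between the labelled mutant arrays numbered 3, lies in a group whose difference was -0.96 (SE 0.724), against -0.33 (SE 0.724) in control arrays. The difference between these responses was -0.64 (SE 1.02, limma adjusted p = 1). The s suffix of this probe set marks probes that can match more than 1 transcript.

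Astrocyte markers were examined beside Sdc4, which astrocytes are known to express. All 9 astrocyte markers with a probe set were measured and none was listed at 0. Their summed linear level lay between 14670 and 15491 in labelled mutant kainate arrays and between 15436 and 16653 in labelled mutant saline arrays. In control arrays it lay between 12352 and 14289 with kainate and between 13518 and 14016 with saline. Averaged over genotypes, the median kainate difference of the 9 markers was -0.06, and none passed by limma without the block. Of them Slc1a3, a glutamate transporter gene, differed by -0.89 (adjusted p = 0.14, with the block 0.0301), and the 8 others lay between -0.17 (Mlc1) and 0.22 (Aldh1l1), none of which passed with the block. Of 8 choroid plexus markers only Clic6 was measured, with a linear level from 33.9 to 114 in labelled mutant kainate arrays and from 39.3 to 129 in labelled mutant saline arrays. Its level was from 18.2 to 54.4 in control kainate arrays and from 77.9 to 106 in control saline arrays. The part of these cells in the Sdc4 values was not tested.

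Sdc3 encodes syndecan-3, a syndecan of neurons that binds heparin-binding growth factors on axons. Labelled mutant kainate arrays had values of 9.05, 8.86 and 8.57, against 9.09, 8.32 and 8.17 in labelled mutant saline arrays. Control kainate arrays had 9.13, 8.83 and 8.51, against 8.97, 8.08 and 8.38 in control saline arrays. The array numbered 1 was the highest of each group, the opposite order to Sdc4, and the kainate and saline groups overlapped. Kainate arrays were higher in 5 of 6 pairs, the labelled mutant arrays numbered 1 being the exception. The averaged difference was 0.33 (SE 0.204, limma adjusted p = 0.49), with the block 0.33 (SE 0.104, adjusted p = 0.0768), and 0.46 in arrays numbered 2 and 3 alone (1.37-fold, adjusted p = 0.0208).

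Since the study concerns factors that bind the cAMP response element, the 250 bases before the annotated start were read for the 12 of 15 genes with an entry in the RefSeq promoter table (GRCm38.p6). The full element TGACGTCA was in none of the 12 windows, and in 1.55% of 32851 promoter windows of this length. Its core TGACG, searched on both strands and contained in the full element, was in 1 of 12, that of Sdc3, and in 17.8% of all windows. The AP-1 motif TGANTCA, which reads alike on both strands, was in none of the 12 and in 6.75% of all. The windows of both syndecan genes are printed, since these genes had the lowest and the highest averaged kainate difference and 1 of them holds the core. That of Sdc3 is at chr4:130792287-130792536 (plus strand) and that of Sdc4 at chr2:164443189-164443438 (minus strand), each written 5′ to 3′ on the strand of its gene, and capitals mark the core, here as its reverse complement CGTCA beginning at position -137 from the start.
Sdc3: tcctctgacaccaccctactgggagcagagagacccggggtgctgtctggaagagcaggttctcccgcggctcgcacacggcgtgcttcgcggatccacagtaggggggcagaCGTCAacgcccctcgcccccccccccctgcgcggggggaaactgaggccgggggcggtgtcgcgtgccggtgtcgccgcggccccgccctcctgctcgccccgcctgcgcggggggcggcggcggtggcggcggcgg
Sdc4: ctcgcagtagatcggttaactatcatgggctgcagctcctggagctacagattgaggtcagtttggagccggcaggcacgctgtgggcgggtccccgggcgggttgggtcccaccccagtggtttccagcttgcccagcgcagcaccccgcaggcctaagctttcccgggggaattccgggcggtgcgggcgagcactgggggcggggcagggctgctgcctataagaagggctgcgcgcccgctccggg
The 2 windows are rich in G and C, with 76.4% for Sdc3 and 68% for Sdc4. A match describes these letters alone, and a window without a match says nothing of whether a factor binds.

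The glypicans Gpc4 and Gpc6, heparan sulfate proteoglycans with a lipid anchor that astrocytes release to promote synapses, gave narrow values. Gpc4 lay between 4.49 and 4.87 and Gpc6 between 5.57 and 5.88 over the 12 arrays. Their averaged kainate differences were -0.01 (95% interval -0.19 to 0.17) for Gpc4 and 0.07 (95% interval -0.10 to 0.24) for Gpc6. Neither passed in any of the 7 comparisons under any setting tried, and the intervals leave room for averaged kainate differences of about 0.2 on the log2 scale.

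Among the integrins, Itgb8 encodes the beta subunit of the alphav beta8 receptor, which activates latent TGF-beta in the brain. It had values of 6.79, 6.06 and 5.98 in labelled mutant kainate arrays, against 6.50, 6.11 and 6.31 in labelled mutant saline arrays. Control kainate arrays had 6.02, 6.01 and 6.15, against 6.29, 6.25 and 5.79 in control saline arrays. The averaged kainate difference was -0.04 (95% interval -0.38 to 0.30). A second Itgb8 probe set, which lay under 4 on 7 of 12 arrays, gave -0.34 (limma adjusted p = 0.458). In arrays numbered 2 and 3 alone it gave -0.55 (adjusted p = 0.0422), where 13.5% of all probe sets passed as lower. The difference between the probe sets was not tested. The second one had its highest values, 4.99 and 4.62, in labelled mutant saline arrays and 4.64 in a control saline array. These alone met the level, so that the level favoured a lower value with kainate for this probe set.

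Itga4 encodes the alpha4 subunit, which on leukocytes binds VCAM1 and fibronectin. It exceeded the level of 4 on 4 of 12 arrays, with values from 3.53 to 4.12, and its averaged kainate difference was -0.02 (95% interval -0.24 to 0.19). Of these 4 arrays 3 were saline arrays, which alone met the level, so that the level favoured a lower value with kainate. For scale, the probe sets of these families that stayed below the level had a median between 2.58 and 2.94 on each array.

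Lamb2 encodes laminin beta2, a chain of vascular and synaptic basement membranes. Labelled mutant kainate arrays had values of 4.08, 5.54 and 5.31, against 5.04, 5.07 and 5.64 in labelled mutant saline arrays. Control kainate arrays had 4.88, 5.16 and 5.49, against 5.03, 4.27 and 5.33 in control saline arrays. Single arrays, number 1 of labelled mutant kainate and number 2 of control saline, lay far below the rest of their groups. The averaged kainate difference was 0.01 (SE 0.273, 95% interval -0.59 to 0.62), which leaves room for a sizeable change in either direction. The r suffix of this probe set marks probes chosen with relaxed rules.

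Col8a2 encodes a chain of collagen VIII, a short network collagen of basement membranes such as that of the cornea. Its values were 3.69, 3.70 and 3.76 in labelled mutant kainate arrays, against 3.75, 3.996 and 4.08 in labelled mutant saline arrays. In control arrays they were 3.81, 3.72 and 3.85 with kainate, against 3.84, 4.11 and 4.53 with saline. The 3 values over 4 that admitted this gene were all from saline arrays numbered 2 or 3, so its kainate differences are given as a description with no test. Kainate was lower in 6 of 6 pairs. The averaged difference was -0.29, and -0.42 in arrays numbered 2 and 3 alone. The pairs numbered 1 differed by -0.06 in labelled mutant and -0.03 in control arrays.

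Col16a1 encodes a collagen that associates with fibrils and also binds integrins. Labelled mutant arrays had values of 4.24, 4.22 and 4.82 with kainate, against 4.50, 4.27 and 4.44 with saline. Control arrays had 4.04, 4.48 and 4.45 with kainate, against 3.72, 4.08 and 4.03 with saline. The control saline arrays were the lowest group, and kainate was higher in each of its 3 control pairs by 0.32 to 0.42. The kainate difference was 0.02 in labelled mutant and 0.38 in control arrays (SE 0.183 each), and neither passed (limma adjusted p = 0.99 and 0.427).

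Adam22 and Adam23 encode LGI receptors without protease activity, Adam22 at synapses with PSD-95. Adam23 had values of 8.18, 7.47 and 8.44 in labelled mutant kainate arrays, against 8.58, 8.83 and 8.67 in labelled mutant saline arrays. In control animals it had 8.51, 8.40 and 8.29 with kainate, against 8.72, 8.81 and 8.68 with saline. Every kainate array lay below every saline array of both genotypes, and Adam23 was the only one of the 15 genes with such a separation in the averaged comparison, where 1.04% of all probe sets had it in this direction. Within genotypes it was lower without overlap in labelled mutant arrays, as was Adamts4, and in control arrays alone of the 15, where 5.46% and 6.27% of all probe sets were.

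The averaged difference of Adam23 was -0.50 (1.42-fold lower with kainate, SE 0.147), the smallest unadjusted p among the 15 genes (0.00631). It did not pass over all probe sets (limma adjusted p = 0.169, with the block 0.0565), and in arrays numbered 2 and 3 alone it was -0.60 (adjusted p = 0.0408). The difference was -0.66 in labelled mutant and -0.34 in control arrays, and these responses differed by -0.33 (SE 0.295, adjusted p = 1). A single array, labelled mutant kainate number 2 at 7.47, held the lowest value, and its pair differed by -1.36 where the other 5 pairs differed by -0.41 to -0.21.

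Adam22 had the steadiest values of the ADAM genes, from 8.41 to 8.79 over all arrays. Its averaged kainate difference was -0.01 (95% interval -0.18 to 0.16). A second Adam22 probe set was over 4 on 8 of 12 arrays, which were all kainate arrays and the saline arrays numbered 1. For this probe set the level thus favoured a higher value with kainate. It gave 0.47 (SE 0.202, limma adjusted p = 0.318) and 0.80 in arrays numbered 2 and 3 alone (adjusted p = 0.0124), where 8.76% of all probe sets passed as higher. Its values were 4.14, 5.01 and 4.11 in labelled mutant kainate arrays, against 4.14, 3.76 and 3.53 in labelled mutant saline arrays, and 4.04, 4.24 and 4.35 in control kainate arrays, against 4.39, 3.45 and 3.77 in control saline arrays. The 2 probe sets thus gave different values for this gene, a difference that was not tested, and the sources used here do not say which part of the transcript each reads.

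Adam11, a further ADAM protein of neurons without protease activity, had values of 8.24, 8.39 and 8.22 in labelled mutant kainate arrays, against 8.46, 7.90 and 7.86 in labelled mutant saline arrays. Control kainate arrays had 8.53, 8.32 and 8.43, against 8.65, 8.02 and 8.23 in control saline arrays. Both pairs numbered 1 went down with kainate (-0.22 in labelled mutant, -0.12 in control) while the 4 others went up by 0.20 to 0.49. The averaged difference was 0.17 (limma adjusted p = 0.607), and 0.34 in arrays numbered 2 and 3 alone (adjusted p = 0.025), so that call depends on the omission of number 1. Adam15, a catalytically active ADAM whose f suffix marks probes shared within a sequence family, lay between 5.12 and 5.72 with an averaged kainate difference of 0.08 (95% interval -0.17 to 0.34).

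Adamts4 encodes aggrecanase-1, a secreted protease that cuts the proteoglycans aggrecan and brevican of perineuronal nets. It had values of 5.07, 5.17 and 5.27 in labelled mutant kainate arrays, against 5.36, 5.62 and 5.41 in labelled mutant saline arrays, and these groups did not overlap. Control kainate arrays had 5.35, 5.40 and 4.89, against 5.26, 5.68 and 5.85 in control saline arrays, and these groups overlapped. Kainate was lower in 5 of 6 pairs. The averaged difference was -0.34 (1.26-fold, SE 0.127, limma adjusted p = 0.261, with the block 0.0971), and -0.46 in arrays numbered 2 and 3 alone (adjusted p = 0.0344). Oligodendrocytes are known to express this gene. Of 10 oligodendrocyte markers 2 were measured (Mobp and Ermn) and none was listed at 0, with a summed linear level of 329 to 580.3 in labelled mutant kainate arrays, 446 to 614 in labelled mutant saline arrays, 384 to 566 in control kainate arrays and 526 to 670.0 in control saline arrays. Averaged over genotypes, Ermn differed by -0.41 with kainate (limma adjusted p = 0.23, with the block 0.0359). Mobp differed by -0.24 (adjusted p = 0.582, with the block 0.305). With the block 5.42% of all probe sets passed as lower. The part of oligodendrocytes in the Adamts4 values was not tested. Adamtsl4, an ADAMTS-like protein without a protease domain that binds fibrillin, lay between 4.92 and 5.85 with an averaged difference of 0.16 (95% interval -0.18 to 0.49).

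**Figure D3:**
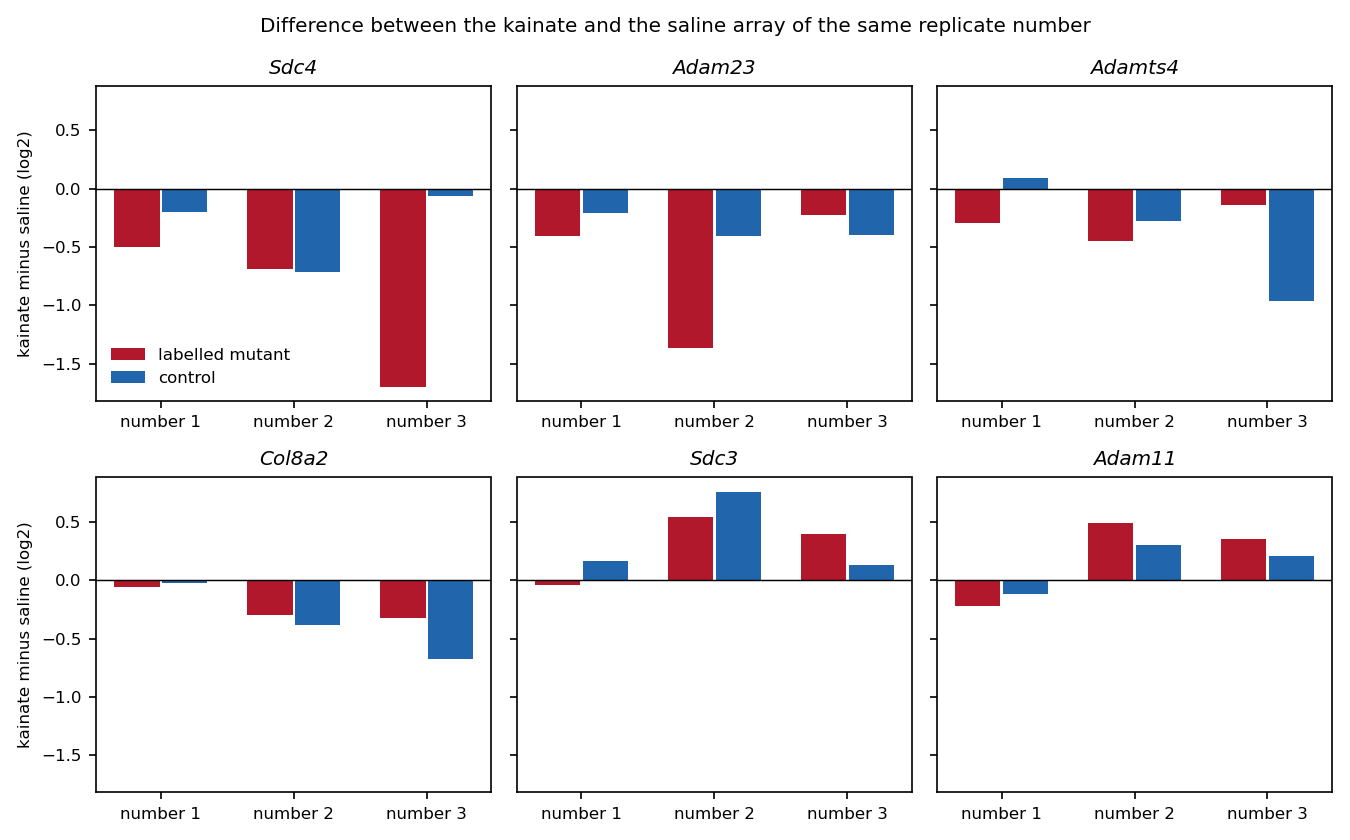
Log2 difference between the kainate and the saline array with the same replicate number, in labelled mutant (red) and control (blue) arrays, for the 5 genes that passed in arrays numbered 2 and 3 alone and for Col8a2, which was admitted through its saline values. All bars of Sdc4, Adam23 and Col8a2 point down, and the bars of Adam11 point down for number 1 and up for numbers 2 and 3.

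The second question was whether labelled mutant arrays differed from control arrays. With saline none of the 15 genes passed by limma, where 0% of all probe sets passed, and 1 had an unadjusted p under 0.05, Col16a1, which was higher, where 1.44% of all probe sets were. After kainate none passed either, where 0.0632% of all probe sets passed, and none had an unadjusted p under 0.05, where 4.67% did. Averaged over treatments none passed, where 0.253% of all probe sets did, and none had an unadjusted p under 0.05, where 6.47% did. Blocking on the replicate number left none of the 15 past the threshold in these 3 comparisons, where 0.142% of all probe sets passed with saline, 0.111% after kainate and 2.32% averaged over treatments. With the block Col16a1 had an unadjusted limma p under 0.05 as higher with saline and averaged over treatments. Itga4 had one as lower after kainate and averaged over treatments. The shares of all probe sets at this unadjusted level with the block are not given here.

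Col16a1 was higher in all 3 labelled mutant saline arrays than in any control saline array, a difference of 0.46 (1.37-fold, 95% interval 0.05 to 0.86, limma adjusted p = 1). Adam22 was lower in all 3 labelled mutant saline arrays, by a small margin (-0.19, 95% interval -0.43 to 0.05, adjusted p = 1). Of all probe sets, 4.48% were higher and 4.33% lower without overlap in this comparison. After kainate the Col16a1 difference was 0.10 (95% interval -0.30 to 0.51) and that of Adam22 -0.04 (95% interval -0.28 to 0.20), and both groups overlapped.

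Itga4 was lower in labelled mutant arrays in 6 of 6 pairs, although the saline pair numbered 3 differed by -0.0028 alone. Its values were 3.53, 3.83 and 3.91 in labelled mutant kainate arrays, against 3.87, 3.96 and 4.09 in control kainate arrays, and 3.61, 3.76 and 4.02 in labelled mutant saline arrays, against 3.82, 4.12 and 4.02 in control saline arrays. Of its 4 values over 4, 3 came from control arrays. These alone met the level, so that the level favoured a lower value in labelled mutant arrays. The averaged difference was -0.21 (SE 0.0964, limma adjusted p = 0.794, with the block 0.163). It passed only with the block and quantile normalization together (-0.24, adjusted p = 0.029). Because of the level, that call is given as a description and not as support for a difference. Col8a2 was also lower in 6 of 6 pairs, with an averaged difference of -0.15 (adjusted p = 0.999). The 4 microglia markers measured, none of them listed at 0, had a summed linear level of 337 to 387 in labelled mutant kainate arrays, against 238 to 264 in control kainate arrays, and of 262 to 349.5 in labelled mutant saline arrays, against 214 to 222 in control saline arrays. Averaged over treatments, Plek was higher by 1.24 (limma adjusted p = 0.042, with the block 0.00807). Olfml3 (0.62) and Siglech (0.61) passed with the block alone, and Tmem119 (0.10) in neither fit. The summed astrocyte level given with Sdc4 was also higher in labelled mutant than in control arrays, without overlap in either treatment. Since values are not comparable between probe sets, such a sum does not weigh its markers evenly. Of the astrocyte markers Aqp4, Mlc1 and Ednrb passed as higher with the block and the others did not, with Aldoc at -0.02. With the block 2.32% of all probe sets passed. The part of such cells in the genotype values of the 15 genes was not tested.

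**Figure D4:**
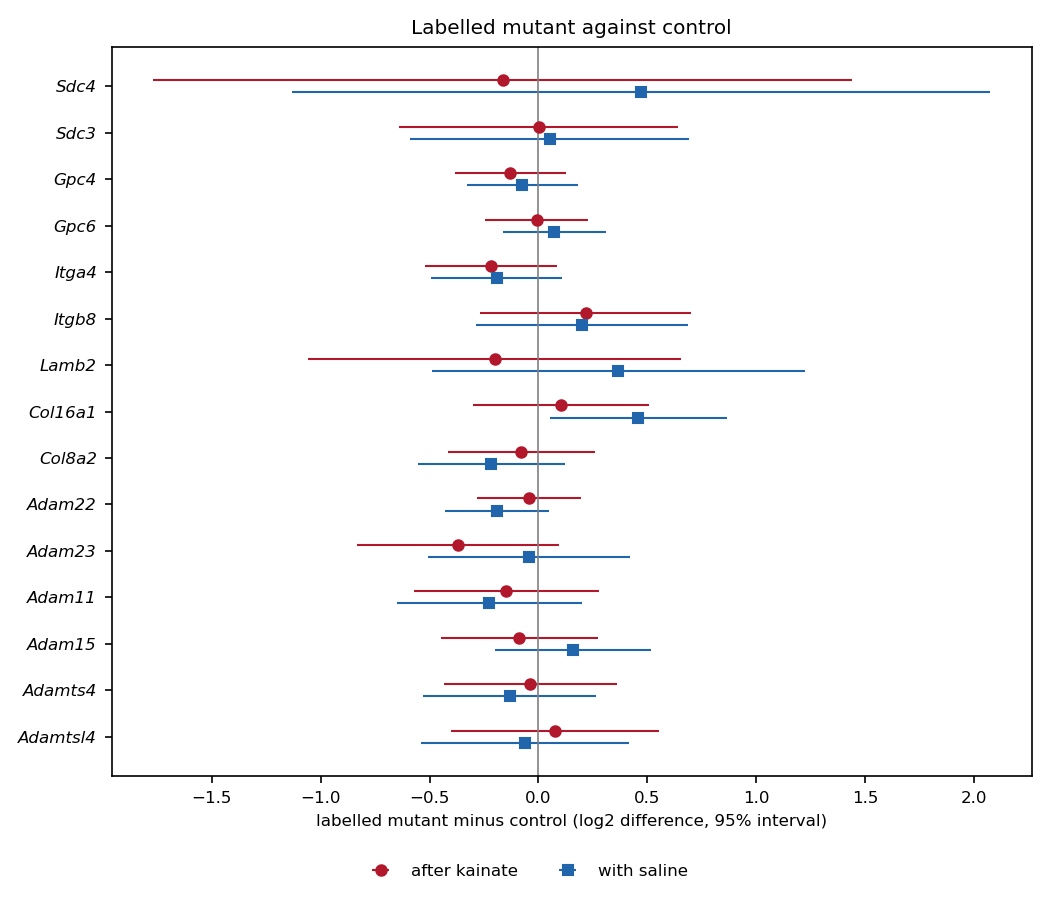
Log2 difference of labelled mutant minus control arrays for the 15 genes, with the 95% interval from limma, after kainate (red circles) and with saline (blue squares). The interval of Col16a1 with saline, from 0.05 to 0.86, is the one that does not include 0.

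The third question, that of the series title, was whether the response to kainate depended on genotype. None of the 15 genes passed the test of the difference between responses by limma, where 0% of all probe sets passed, with or without the block. None of the 15 had an unadjusted p under 0.05 here in either fit, against 8.94% of all probe sets with the block and 2.32% without it. Differences between responses, labelled mutant minus control, ran from -0.64 for Sdc4 (95% interval -2.90 to 1.63) to 0.15 for Adam22 (95% interval -0.19 to 0.49). The smallest unadjusted p belonged to Col16a1 at -0.36 (SE 0.259, adjusted p = 1). These intervals are wide, and for Sdc4 and Lamb2 they include differences of more than 1 on the log2 scale in size.

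Other genes of the matrix were read from 5 lists. Of 15 perineuronal net genes 2 were measured, of 31 further matrix proteins 3, of 22 collagen and matrix maturation enzymes 3, of 30 other proteases and inhibitors 4 and of 21 matrix receptors and integrin adaptors 7. None of these genes passed for kainate averaged over genotypes, with or without the block, and the list medians lay between -0.08 and 0.12. Averaged over treatments none passed in labelled mutant against control arrays without the block. With the block the matricellular gene Thbs4 was higher by 1.44 (limma adjusted p = 0.00319, without the block 0.115) and Tln2, which encodes the integrin activator talin-2, was lower at -1.42 (adjusted p = 0.00937, without the block 0.101). In this comparison 2.32% of all probe sets passed with the block. The genes with the smallest p in the other lists were Cd44, a hyaluronan receptor (0.37, adjusted p = 0.714), the proprotein convertase gene Pcsk6 (0.53, adjusted p = 0.847) and P4ha1, which hydroxylates collagen (-0.16, adjusted p = 0.999).

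The remaining 43 genes of the named families, with 51 probe sets, stayed below the level and were not compared. They included all 5 MMP genes and all 11 serpin genes with a probe set, 9 of 11 collagens and 8 of 10 ADAMTS genes, and no TIMP gene had a probe set with 1 symbol. Among the 15 genes, active proteases are thus represented by Adam15 and Adamts4 alone. Just inside the level were Col8a2 with 3 and Itga4 with 4 arrays over it, and just outside were Mmp27 and Serpina1f with 2 arrays and Col5a2 with 1.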

How the data were processed

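The deposited table held 1 log2 value per probe set and array. Per the submitters' processing notes, the authors used GCRMA in R 2.4.1, with settings, build and annotation not given in the sources used here. After removal of 66 control probe sets, 6334 of 12411 had a value over 4 in at least 3 arrays and were tested. limma 3.58.1 (R 4.3.3) was fitted over the 12 arrays with a mean for each of the 4 groups, variances were moderated by eBayes along the intensity trend, and a Benjamini-Hochberg adjusted p of 0.05 was the threshold in each of 7 comparisons. The number of arrays limits the precision, and p-values measure the spread between pools of animals.

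Replicate numbers were taken as pairs, since deviations from the group means correlated in each of the 18 pairs of same-numbered arrays (r from 0.361 to 0.881). Pairs of different numbers gave r from -0.782 to 0.583, over 0.1 in 12 of 36, and all 12 arrays correlated best with their own number. This mainly sets number 1 apart, and no label explains the numbers. Fits with the number as a block, numbers 2 and 3 alone, median centring, quantile normalization, other filters, no trend, averaged probe sets and 1 array left out were compared. The block with 1 array left out was added after seeing the data. No direction was read from a difference under its SE. The members and lists were chosen with earlier results of these data known. Named genes were those that passed, the 4 smallest p per comparison, and the leading members of each family. The calculations were tested on simulated data.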

Additional observations from a re-analysis of the deposited data

How the results depend on the processing

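With the reported setting 0 of the 15 genes passed in each of the 7 comparisons, and this number was the same in 144 of 147 recalculations. The median difference of the 15 genes moved in 21 of 147. The number that passed was 1 for kainate averaged over genotypes with the replicate block (Sdc4). It was 6 in replicates 2 and 3 alone, Col8a2 included, which reached the level through saline arrays only. It was also 1 for labelled mutant against control averaged over treatments with the block and quantile normalization together (Itga4). Control arrays alone were enough for Itga4 to reach the level, which favoured this direction. The replicate block changed no other call. Leaving out 1 array at a time without the block gave 0 genes in each of the 7 comparisons. With the block, the Sdc4 call had an adjusted p from 0.0171 (without number 1 of labelled mutant kainate) to 0.124 (without number 3 of control saline), with differences of -0.74 to -0.47, and was kept only when number 1 of control saline, labelled mutant saline or labelled mutant kainate was left out. Without number 1 of labelled mutant kainate Adam23, Sdc3 and Sdc4 passed, where 17% of all probe sets did, and Col8a2 is left out of this for its level. Over the blocked fits with 1 array left out, the share of all probe sets that passed ran from 0.853% to 17%. Signs were not stable for every small difference. With saline, labelled mutant minus control, Adam15 differed by 0.16 with the block (SE 0.14) and by -0.03 in arrays numbered 2 and 3 alone (SE 0.148). The cause of these changes was not tested. Values of Itga4, Col8a2 and Col16a1 lie near the level of 4 set for testing, where signal over background limits what a small difference can show.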
